A study of Mus musculus with 8 samples.

Results

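RNA from C3H10T1/2 cells, a mouse mesenchymal cell line derived from C3H embryos, was sequenced to follow 9 transcription factor genes of the osteoblast lineage, Runx2, Runx1, Cbfb, Sp7, Dlx5, Msx1, Msx2, Twist1 and Twist2. They were chosen by symbol, with earlier results of these data known. They make up 9 of the 18605 genes and 34 of the 57714 transcripts in the deposited tables. The design held 4 groups of 2 libraries each. NC cells carried the non-target control and were taken before induction, and KD-Nap1l2 cells, labelled as a knockdown of Nap1l2, were taken at the same point. NC-7d and KD-Nap1l2-7d cells were the same lines after 7 days in osteogenic medium, which held dexamethasone, ascorbic acid and β-glycerol phosphate. All groups came from 1 cell line grown in serum, and the knockdown was delivered by lentivirus as an shRNA. The sources used here do not state whether the 2 libraries of a group came from separate cultures, so the p-values below measure the spread between libraries, which may be technical.

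Runx2 is the transcription factor that commits mesenchymal cells to the osteoblast lineage. It binds DNA through its Runt domain together with Cbfb, a partner that does not contact DNA itself, and Sp7 (osterix) acts downstream of it. Dlx5, Msx1 and Msx2 are homeodomain proteins, and Twist1 and Twist2 are basic helix-loop-helix proteins that can bind the Runt domain and restrain Runx2. Runx2 has a distal and a proximal promoter, and the proteins made from them differ in their first residues.

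The sequences at which the distal and proximal Runx2 proteins begin are shown because the transcript estimates described further on divide the gene along this line. In GENCODE vM21 (GRCm38), Runx2 occupies chr17:44495987-44814797 on the minus strand. The distal transcript Runx2-202 starts at position 44814797 and its coding sequence starts at 44814226, in exon 2, whereas Runx2-203 starts at 44736648 and Runx2-213 at 44735710, both with a coding start at 44735634, in exon 1. The first 30 coding bases follow, with the start codon in capitals.
Runx2-202 (distal): ATGgcgtcaaacagcctcttcagcgcagtg
Runx2-203 and Runx2-213 (proximal): ATGcgtattcctgtagatccgagcaccagc

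The distal promoters of Runx2 and of its paralog Runx1 are shown because both hold a pair of the RUNX motif, ACCACA or TGTGGT on the other strand, the letters that Runt-domain proteins bind. In the RefSeq table of promoters (GRCm38.p6, 250 bases before to 50 bases after each start), 16.76% of 32851 promoters held this motif at least once. The distal Runx2 promoter held 3 motifs and the distal Runx1 promoter 2, and none was found in the second Runx1 promoter or in those of Cbfb, Msx1, Msx2, Twist1 and Twist2. The proximal Runx2 promoter and those of Dlx5 and Sp7 had no entry and were not examined. The windows below are on the minus strand, with motifs in capitals.
Runx1, chr16:92826025-92826054: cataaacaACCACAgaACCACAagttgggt
Runx2, chr17:44814583-44814612: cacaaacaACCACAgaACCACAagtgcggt
Runx2, chr17:44814686-44814715: ggtcacaaACCACAtgattctgtctctcca
The first pair of windows was identical at 27 of 30 bases. Both were shown for their paired motif and aligned on it, so the identical motif letters follow from that choice. The paired motif of 14 bases occurred in the promoters of 4 genes of the table, Runx1, Runx2, Runx3 and Gm16225. The RefSeq starts listed there were 92826074 in Runx1 and 44814627 in Runx2, where GENCODE starts Runx2-202 at 44814797. The motifs began 28 and 36 bases after the listed start in Runx1 and 23 and 31 bases after it in Runx2. A further Runx2 motif began 80 bases before the listed start (offset -80). On the minus strand, all 3 Runx2 motifs lie after the GENCODE start of Runx2-202. A match is a description of these letters and does not show binding.

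Primers that the study used to measure Runx2 and Sp7 by qPCR are shown because they fix which transcripts that assay reads. Both Runx2 primers matched 11 of the 13 GENCODE transcripts of the gene, with a product of 159 bases, and thus do not separate the distal from the proximal form. Both Sp7 primers matched 1 of 3 transcripts, Sp7-201, with a product of 155 bases.
Runx2 forward, exon 2 of Runx2-203, chr17:44724872-44724891: tcggagaggtaccagatggg
Runx2 reverse, across exons 2 and 3, chr17:44717285-44724752: tgaaactcttgcctcgtccg
Sp7 forward, across exons 1 and 2, chr15:102359397-102366229: gtcctctctgcttgaggaagaa
Sp7 reverse, exon 2, chr15:102359264-102359283: gggctgaaaggtcagcgtat

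Libraries held 17420284 to 19427359 estimated counts. Nap1l2 itself had 3 and 3 counts in NC, 2 and 7 in KD-Nap1l2, 15 and 5 in NC-7d and 7 and 13 in KD-Nap1l2-7d, so its counts overlapped between the labels at both times and the knockdown could not be checked in these libraries. Directions between the labels below therefore refer to the libraries labelled KD-Nap1l2. Of 8 mature osteoblast markers, 4 were at or near 0 in every library, with Alpl at 0 to 10 counts, Mepe at 0 to 7, Ibsp at 0 to 2 and Sp7 at 1 to 5.16, also after 7 days. Bglap at 0 to 22.48 and Bglap2 at 0 to 42.36 were low, whereas Phex at 40.93 to 367.35 and Dmp1 at 75 to 569 counts were detected in every library. The summed FPKM (fragment counts scaled to transcript length and library size) of these 8 markers was 9.56 to 16.23 in NC, 7.81 to 20.07 in KD-Nap1l2, 3.22 to 8.30 in NC-7d and 8.56 to 10.78 in KD-Nap1l2-7d. Mesenchymal markers were abundant as a sum, with a summed FPKM over 10 genes of 6046 to 8230 before and 4093 to 5394 after induction. Vim alone was at 1562.08 to 4537.93 FPKM, whereas Nt5e was at 0 to 3 counts and Thy1 at 19 to 183. The summed FPKM of 9 adipocyte markers was 32.52 to 60.83 before and 176.8 to 229.2 after induction, although Plin1 stayed at 0 to 2 counts and Adipoq at 1 to 18. Fabp4 alone ranged from 7.7 to 180.85 FPKM across the libraries, so the sum does not stand for all 9. Of 6 adipocyte markers tested over induction averaged over both labels, edgeR called 2 higher and 1 lower (12.8% and 12.7% of all genes). Their median log2 fold change was 0.15. The sum of 7 chondrocyte markers was 78.05 to 79.61 FPKM in NC and 94.13 to 124.3 in KD-Nap1l2. After induction it was 67.31 to 86.24 in NC-7d and 66.4 to 67.49 in KD-Nap1l2-7d. Sox9 alone was at 57.92 to 111.34 FPKM, so this sum does not stand for all 7. Col2a1 at 98 to 582 counts, Col9a1 at 69 to 168, Comp at 82 to 159 and Sox6 at 86.05 to 245.03 were detected in every library. Sox5 was at 15.18 to 73.15 counts and Acan at 0 to 4. The sum of 6 immune cell markers was 4.76 to 12.19 FPKM. Cd68 at 56 to 196 counts, Lyz2 at 14.68 to 103.33 and Csf1r at 5 to 21 were detected in every library. Ptprc was at 0 to 4 counts, Itgam at 0 to 6.18 and Cd3e at 0 to 1. The part of these shifts in the results below was not tested.

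Levels of the 9 genes spanned a wide range, as shown by the plot of normalized counts per library (estimated counts scaled by TMM to a common library size). On the FPKM scale, which accounts for length, Twist1 at 22.25 to 37.46, Cbfb at 25.26 to 36.33 and Twist2 at 16.35 to 34.57 had the highest levels, and their ranges overlapped. Runx2 at 9.61 to 15.58 and Dlx5 at 5.92 to 15.97 came next and also overlapped, followed by Msx1 at 2.24 to 6.41, which reached into the range of Dlx5, and Runx1 at 2.07 to 5.07, within that of Msx1 except at its lowest value. For Runx2, FPKM here is the sum over its transcripts, for a reason given below. Sp7 at 0.02 to 0.12 and Msx2 at 0.04 to 0.15 lay far below the others, and with 1 to 5.16 and 1.74 to 5.91 estimated counts per library they did not pass the filter on low counts. At such counts small differences in Sp7 or Msx2 could not be resolved. No library, before or after induction, held more than 5.16 counts of Sp7 or 5.91 of Msx2. When the filter was dropped, the induction estimate averaged over both labels was -0.36 ± 0.74 (log2, SE) for Sp7 and 0.07 ± 0.71 for Msx2, with adjusted p = 0.847 and 1 in edgeR.

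**Figure D1:**
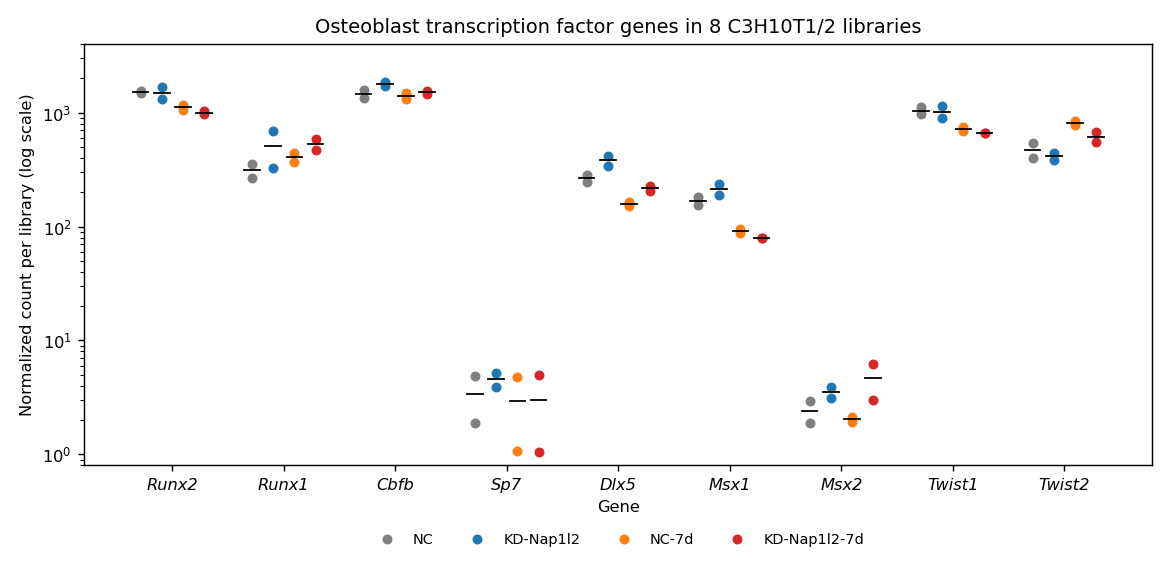
Normalized counts on a log axis for the 9 genes. Each point is 1 library, colours mark the 4 groups of 2 libraries, and black bars mark group means. Sp7 and Msx2 lie below 10 in all libraries, Runx2, Dlx5, Msx1 and Twist1 are lower and Twist2 is higher in every library taken after 7 days.

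The first comparison asked how these genes changed over 7 days of osteogenic induction. No group was kept for 7 days without osteogenic medium, so effects of the medium and of time in culture cannot be told apart. With both labels averaged, 5 of the 7 tested members were called at an adjusted p under 0.05 (edgeR quasi-likelihood test, Benjamini-Hochberg adjustment over 13470 genes), where 25.5% of all genes were called. Of the members, 4 fell (12.7% of all genes fell) and 1 rose (12.8% of all genes rose), and their median log2 fold change was -0.52, against -0.01 over all genes. Libraries before and after induction did not overlap for 5 of the 7 members. The share over all genes was 26.4%. In bulk RNA, fewer cells that express a gene and less RNA per cell cannot be told apart.

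Runx2 was lower after induction, with normalized counts of 1547 and 1498 in NC, 1323 and 1669 in KD-Nap1l2, 1174 and 1047 in NC-7d and 976 and 1023 in KD-Nap1l2-7d. All 4 libraries taken after induction lay below all 4 taken before. Averaged over both labels, Runx2 fell by 30.2% (log2 fold change -0.52 ± 0.10 SE, edgeR adjusted p = 0.00888). Within NC the change was -0.46 ± 0.14 and missed the threshold (edgeR adjusted p = 0.0924), and within KD-Nap1l2 it was -0.58 ± 0.14 and passed it (edgeR adjusted p = 0.0334). The call averaged over both labels held without each library in turn, but the deposited gene FPKM row gave the opposite sign, as described below.

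Cbfb, the partner of the Runx proteins, had 1582 and 1350 normalized counts in NC, 1839 and 1720 in KD-Nap1l2, 1494 and 1311 in NC-7d and 1542 and 1462 in KD-Nap1l2-7d. The libraries before and after induction overlapped. The averaged change was -0.15 ± 0.09 (log2, SE; 95% interval -0.37 to 0.06) and was not called (edgeR adjusted p = 0.255).

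Runx1, a Runt-domain paralog best known from blood formation, had 268 and 354 normalized counts in NC, 325 and 685 in KD-Nap1l2, 446 and 366 in NC-7d and 587 and 471 in KD-Nap1l2-7d. The second KD-Nap1l2 library lay above all others, while the first lay between the NC libraries. The averaged change was 0.23 ± 0.23 (log2, SE) and was not called (edgeR adjusted p = 0.504). Without the second KD-Nap1l2 library it was 0.54 and was called at adjusted p = 0.048 in edgeR, so this call rests on 1 library. The Runx1 level per length was 0.137 to 0.325 of that of Runx2 before induction and 0.280 to 0.472 after it, on the FPKM scale, and these ranges overlapped.

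The homeobox genes gave the largest falls among the members. Msx1, a repressor of differentiation in craniofacial and limb mesenchyme, had 183 and 155 normalized counts in NC, 188 and 235 in KD-Nap1l2, 94.2 and 87.2 in NC-7d and 79.2 and 79.3 in KD-Nap1l2-7d. The groups before and after induction were fully separated, and Msx1 fell by 55.1% on average (log2 fold change -1.16 ± 0.15 SE, edgeR adjusted p = 0.0017). Dlx5, an activator upstream of Runx2 and Sp7, had 283 and 247 normalized counts in NC, 342 and 418 in KD-Nap1l2, 152 and 163 in NC-7d and 228 and 207 in KD-Nap1l2-7d. Its groups were likewise separated, and it fell by 41.6% (log2 fold change -0.78 ± 0.12 SE, edgeR adjusted p = 0.00401).

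The Twist paralogs moved in opposite directions. Twist1 had 1118 and 964 normalized counts in NC, 905 and 1136 in KD-Nap1l2, 683 and 745 in NC-7d and 666 and 664 in KD-Nap1l2-7d. Twist2 had 398 and 543 in NC, 386 and 441 in KD-Nap1l2, 851 and 781 in NC-7d and 548 and 677 in KD-Nap1l2-7d. Neither gene overlapped between the libraries before and after induction. Twist1 fell by 33.1% (log2 fold change -0.58 ± 0.10 SE, edgeR adjusted p = 0.00662), and Twist2 was 1.60-fold higher after induction (log2 fold change 0.68 ± 0.13 SE, edgeR adjusted p = 0.00891). The ratio of Twist2 to Twist1 per length, on the FPKM scale, was 0.436 to 0.691 before induction and 1.01 to 1.53 after it, so Twist2 passed Twist1 in all 4 induced libraries.

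**Figure D2:**
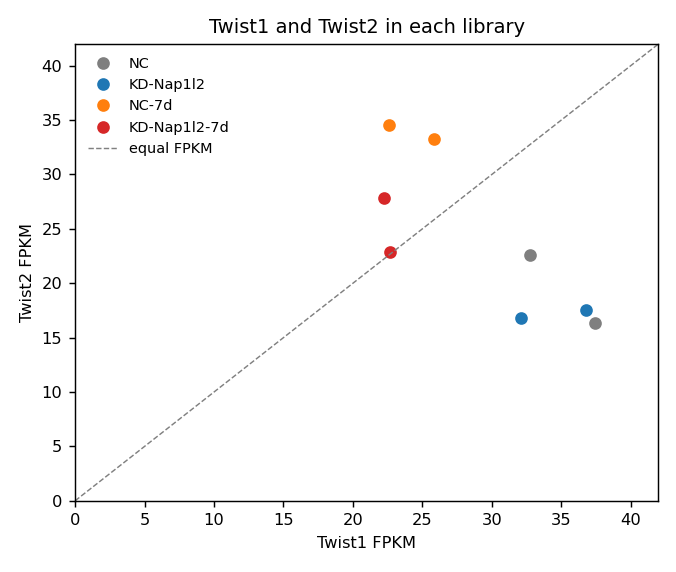
Twist2 FPKM against Twist1 FPKM, with 1 point per library, colours for the 4 groups and a dashed line at equal values. The 4 libraries before induction lie below the line, with Twist2 at 16.35 to 22.64 FPKM, and the 4 induced libraries lie above it, with Twist2 at 22.85 to 34.57 FPKM.

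Within NC alone, 3 of 7 members were called, with 8.21% of all genes called. Dlx5 fell by 40.5% (log2 fold change -0.75 ± 0.17 SE, edgeR adjusted p = 0.0399), Msx1 fell by 46.4% (-0.90 ± 0.21 SE, adjusted p = 0.0399) and Twist2 was 1.73-fold higher (0.79 ± 0.18 SE, adjusted p = 0.0394). For Twist1 the change was -0.54 ± 0.15 (edgeR adjusted p = 0.0625). Within KD-Nap1l2, 4 of 7 members were called, with 14.2% of all genes called. Msx1 fell by 62.5% (log2 fold change -1.41 ± 0.21 SE, edgeR adjusted p = 0.00671), Dlx5 fell by 42.8% (-0.80 ± 0.17 SE, adjusted p = 0.0224) and Twist1 fell by 34.8% (-0.62 ± 0.15 SE, adjusted p = 0.0314), besides Runx2. For Twist2 the change was 0.57 ± 0.19 (edgeR adjusted p = 0.0802). These calls within 1 label were fragile. The number of members called within NC ran from 0 without NC replicate 1, or without any 1 library of the induced groups, to 5 without either KD-Nap1l2 library, and within KD-Nap1l2 it ran from 0 without either KD-Nap1l2-7d library to 4.

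**Figure D3:**
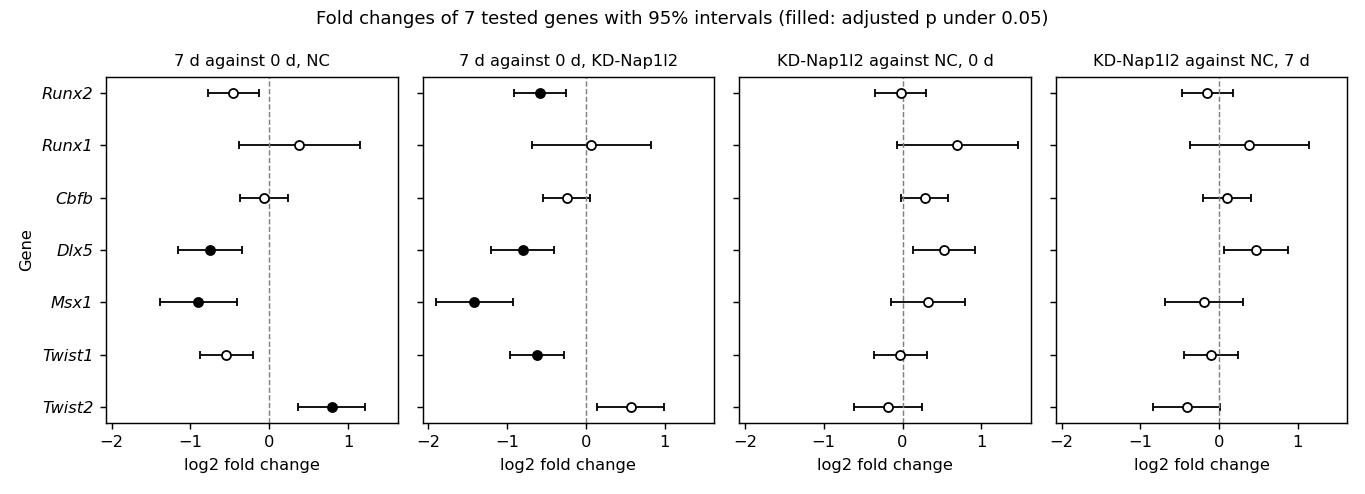
Log2 fold changes of the 7 tested genes in 4 comparisons, with 95% intervals from the edgeR fit of 8 libraries; filled points passed an adjusted p under 0.05. Runx2, Dlx5, Msx1 and Twist1 lie left of 0 and Twist2 right of 0 in both induction panels, and no point is filled in the panels that compare KD-Nap1l2 with NC.

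The second comparison asked whether the members differed between KD-Nap1l2 and NC libraries. Before induction none of the 7 members was called by edgeR or by DESeq2, with 0.0817% of all genes called by edgeR and 3.44% by DESeq2, and 1 had an unadjusted p under 0.05, Dlx5 (13.7% of all genes). Dlx5 was 1.44-fold higher in KD-Nap1l2 than in NC by the fit (log2 difference 0.52 ± 0.17 SE, edgeR adjusted p = 0.239). Both KD-Nap1l2 libraries lay above both NC libraries. After 7 days again none was called by edgeR or DESeq2, with 0% of all genes called by edgeR, 0.577% by DESeq2 and 7.85% at an unadjusted p under 0.05. Dlx5 was again the member with an unadjusted p under 0.05, 1.38-fold higher without overlap (log2 difference 0.47 ± 0.18 SE, edgeR adjusted p = 0.572).

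For Runx2 the log2 difference between KD-Nap1l2 and NC was -0.03 before induction, with a 95% interval from -0.35 to 0.30, and -0.15 after 7 days, with an interval from -0.48 to 0.18. Runx2 libraries overlapped before induction, and after it both KD-Nap1l2-7d libraries lay slightly below both NC-7d libraries. For Twist2 after 7 days the log2 difference was -0.41, with an interval from -0.84 to 0.01 (edgeR adjusted p = 0.642), and both KD-Nap1l2-7d libraries lay below both NC-7d libraries. For Runx1 before induction it was 0.70, with an interval from -0.07 to 1.46 (edgeR adjusted p = 0.405). Without KD-Nap1l2 replicate 1, the Runx1 difference was 1.14, and without KD-Nap1l2 replicate 2 it was 0.06. Its size thus depended on which KD-Nap1l2 library was kept. Libraries of the 2 labels did not overlap for 3 of 7 members before induction and 6 of 7 after it. The shares over all genes were 43.2% and 42.1%. Of these members after 7 days, Runx1 and Dlx5 were higher in KD-Nap1l2-7d, and Runx2, Msx1, Twist1 and Twist2 were lower.

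The difference between the knockdown contrasts at 7 and 0 days was called for none of the 7 members by edgeR or DESeq2, nor was it at an unadjusted p under 0.05 in edgeR (0% and 7.04% of all genes, and 0.759% called by DESeq2). The largest estimate was that of Msx1, with a log2 difference of -0.52 ± 0.30 SE and a 95% interval from -1.20 to 0.17. It was the member that was higher in both KD-Nap1l2 libraries before induction and lower in both after it (edgeR adjusted p = 0.764). The induction comparisons share their control libraries with the comparisons of labels, so their values are not independent.

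Runx2 FPKM differed between the deposited tables. For each gene, the mean of the per-library FPKM was set against the authors' group mean, and the gene value against the sum of its transcripts. Runx2 was the 1 gene of 18605 that failed either check, with a tolerance of 0.011 FPKM for the mean, whereas the estimated counts passed for all genes. The Runx2 row of the gene table held 11.48 and 10.54 FPKM in NC, 15.20 and 15.58 in KD-Nap1l2, 13.20 and 14.39 in NC-7d and 15.07 and 15.98 in KD-Nap1l2-7d. Read as deposited, the NC libraries are the lowest and the KD-Nap1l2-7d libraries are among the highest. The sums over its 15 transcripts were 15.09 and 14.36 in NC, 13.21 and 15.58 in KD-Nap1l2, 11.48 and 10.54 in NC-7d and 9.61 and 9.87 in KD-Nap1l2-7d. In these sums the induced libraries are the lowest, as in the counts.

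The authors' group means for Runx2 were 14.71 in NC, 14.39 in KD-Nap1l2, 11.01 in NC-7d and 9.74 FPKM in KD-Nap1l2-7d, against 14.72, 14.40, 11.01 and 9.74 from the transcript sums. Of the 8 values in the gene row, 5 lay within 0.05 FPKM of the transcript sum of a different library, and 1, KD-Nap1l2 replicate 2, equalled its own. The values 11.48 and 10.54 stood under NC in the gene row and under NC-7d in the transcript sums. The values 15.20 and 15.98 lay over 0.05 FPKM from the transcript sum of every library. With limma on log2(FPKM + 1), the gene row gave a Runx2 change of 0.16 over induction (adjusted p = 0.23) and a difference of 0.45 between KD-Nap1l2 and NC before induction (adjusted p = 0.174), both opposite in sign to the counts. The values reported for Runx2 elsewhere rest on the counts and the transcript sums.

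**Figure D4:**
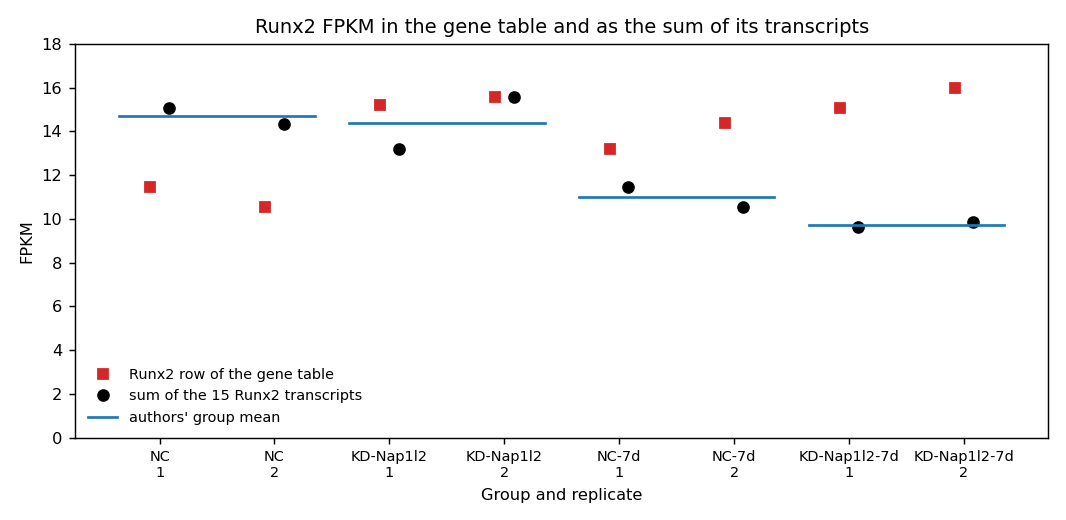
Runx2 FPKM per library from the gene table (red squares) and as the sum of 15 transcripts (black circles), with the authors' group mean as a blue line, from 0 upward. The circles lie around the lines and fall to 9.61 and 9.87 in KD-Nap1l2-7d, where the squares stand at 15.07 and 15.98.

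Single transcripts were estimated with far less precision than genes. The biological coefficient of variation common to the libraries was 1.01 for transcripts and 0.178 for genes. Of the 34 member transcripts, 24 were tested, and none was called over induction averaged over both labels, with 1.42% of all 38878 transcripts called and 5 of the 24 at an unadjusted p under 0.05 (14.0% of all). DESeq2 called 4 of the 21 member transcripts for which it gave an adjusted p (9.48% of all), and edgeR called 3 of the 9 with at least 10 counts in every library (6.65% of all such transcripts). The comparisons of KD-Nap1l2 with NC gave no called member transcript with edgeR or DESeq2, with 0 before induction (5.69% of all) and 1 after 7 days (4.34% of all) at an unadjusted p under 0.05. At these 2 times, edgeR called 0% of all transcripts, and DESeq2 called 2.49% and 1.54%. In a test of transcript use, which asks whether a transcript moves unlike the rest of its gene, none of 21 member transcripts was called over induction, where 0.0470% of all were called, and 1 had an unadjusted p under 0.05. None was called between the labels before induction (0.0264% of all called) or after 7 days (0.00294% of all called), with 0 at an unadjusted p under 0.05 in either.

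Runx2 was listed with 15 transcripts, of which 5 could be paired with GENCODE. NM_001146038.2 and NM_009820.5 paired with the distal Runx2-202, NM_001145920.2 and NM_001271630.1 with the proximal Runx2-203, and NM_001271631.1 with the proximal Runx2-213. The counts of the distal pair moved from one to the other between libraries. NM_009820.5 held 271 and 266 counts in NC, 173 and 48.6 in KD-Nap1l2, 258 and 0 in NC-7d and 361 and 0 in KD-Nap1l2-7d. NM_001146038.2 held 22.4 and 0 in NC, 208 and 326 in KD-Nap1l2, 0 and 349 in NC-7d and 0 and 39.7 in KD-Nap1l2-7d. In both induced groups, the library with counts for one of them had 0 for the other.

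The estimates were also summed by promoter, a grouping made after the transcript table was seen. Distal transcripts held 293 and 266 estimated counts in NC, 382 and 374 in KD-Nap1l2, 258 and 349 in NC-7d and 361 and 39.7 in KD-Nap1l2-7d. The last library stood apart, and the other 7 overlapped before and after induction. Proximal transcripts held 1107 and 1219 in NC, 910 and 1030 in KD-Nap1l2, 657 and 658 in NC-7d and 540 and 824 in KD-Nap1l2-7d, lower in every induced library than in any library before induction. The other 10 transcripts together held 60.4 to 201 counts per library.

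Proximal transcripts made up 73.2% ± 3.92 (SD, n = 2) of the Runx2 counts in NC, 65.7% ± 2.22 in KD-Nap1l2, 60.1% ± 0.229 in NC-7d and 69.8% ± 20.3 in KD-Nap1l2-7d. The share was thus lower in both NC-7d than in both NC libraries, while the KD-Nap1l2-7d libraries, at 55.5% and 84.1%, enclosed every other value. With 2 libraries against 2, an exact permutation test cannot give a p below 0.333. Of single proximal transcripts with counts in all libraries, NM_001271630.1 changed by -0.60 ± 0.21 (log2, SE, edgeR adjusted p = 0.297) and NM_001145920.2 by -0.75 ± 0.38 (adjusted p = 0.451) over induction averaged over both labels.

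**Figure D5:**
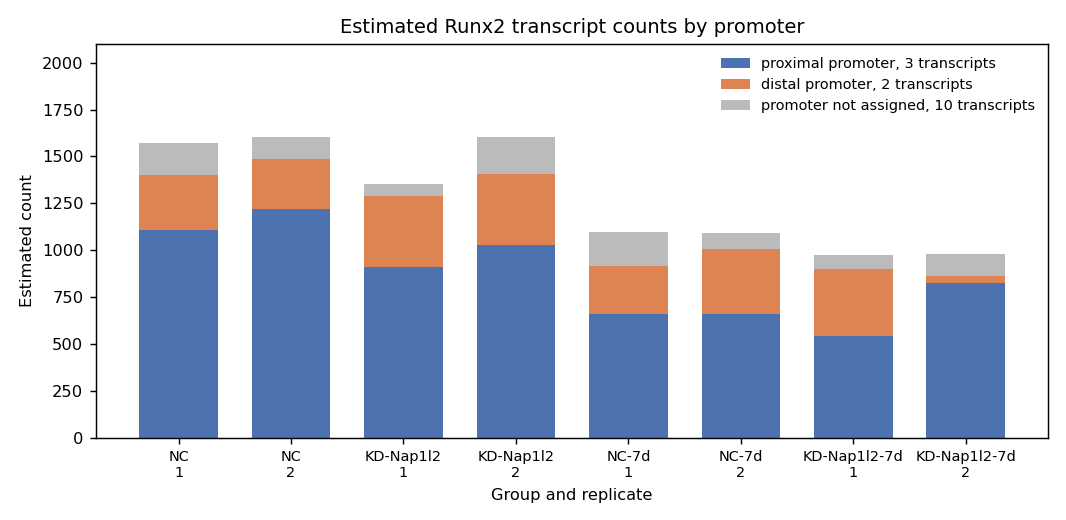
Estimated Runx2 transcript counts per library, stacked by promoter, with bars starting at 0. The proximal part is 910 to 1219 counts before and 540 to 824 after induction, and the distal part is 258 to 382 counts in 7 libraries and 39.7 in KD-Nap1l2-7d replicate 2.

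Transcripts of the other members were fewer. Runx1 was mostly NM_001111023.2, which starts inside the gene (Runx1-203, position 92696125), at 78.1% to 97.5% of its counts. The distal NM_001111021.2 had 8.46 to 54.8 counts. For NM_001111023.2, the change over induction was 0.10 ± 0.27 (log2, SE, edgeR adjusted p = 0.982). Cbfb was divided between NM_001161458.1, at 40.5% to 74.7% of its counts, and NM_022309.4, at 20.2% to 59.5%, with both extremes in the 2 KD-Nap1l2 libraries. Dlx5 was mostly NM_010056.3, at 68.0% to 95.8%, with a change of -0.88 ± 0.18 over induction (log2, SE, edgeR adjusted p = 0.0951), called by DESeq2 at adjusted p = 3.22e-05. Msx1, Msx2, Twist1 and Twist2 had 1 transcript each. The strand setting of the counting is not given in the sources used here, and antisense genes share exon bases with Runx2 (Runx2os1, 519 bases), Runx1 (Gm26626, 106 bases) and Twist2 (Gm29100, 1477 bases), so reads of these pairs cannot be told apart.

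The 5 genes whose levels were most like those of Runx2 over the 8 libraries were Wars2, Asph, P3h3, Fam43a and Nfix, each with Pearson's r of 0.98, among 11279 genes compared. All 5 were lower in every induced library, for example Nfix, a nuclear factor I protein, at 9555 to 10890 normalized counts before and 6831 to 8342 after induction. Among the members, r with Runx2 was 0.95 for Twist1 and for Msx1, 0.71 for Dlx5, 0.39 for Cbfb, -0.19 for Runx1 and -0.65 for Twist2. These points share the induction and the libraries, and the values are descriptions.

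Related genes gave the surroundings of these changes, all over induction averaged over both labels. They came from lists chosen with earlier results of these data known, so the values are descriptions. Their counts stand against 12.8% of all genes that rose and 12.7% that fell. Of 25 other skeletal transcription factors, 23 were tested, 1 rose and 5 fell, with a median log2 fold change of -0.20 against -0.01 over all genes. Foxc1, a forkhead factor of skeletal development, rose from 1040 to 1539 normalized counts before induction to 2083 to 3336 after it (log2 fold change 0.96 ± 0.16 SE, edgeR adjusted p = 0.00545). Tcf7, a nuclear effector of Wnt signalling, fell from 187 to 286 to between 54.6 and 97.8 (-1.59 ± 0.19 SE, adjusted p = 0.00135). Dlx6, the genomic neighbour of Dlx5, fell from 6.54 to 17.7 to between 1.07 and 5.01 (-1.79 ± 0.48 SE, adjusted p = 0.029), and its call was lost with DESeq2 (adjusted p = 0.107) and without 6 of the 8 libraries.

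Of 28 cofactors and regulators of Runx2, 27 were tested, 5 rose and 2 fell, with a median of 0.12. Zfp521, a zinc finger protein that antagonises Runx2, rose from 1112 to 1416 normalized counts to between 1864 and 2924 (log2 fold change 0.90 ± 0.15 SE, edgeR adjusted p = 0.00535). Wwp1, a ubiquitin ligase, rose by 0.78 ± 0.13 (adjusted p = 0.00554). Tle2, a Groucho family co-repressor, fell by 0.98 ± 0.19 on the log2 scale (edgeR adjusted p = 0.00919) and Trps1, a zinc finger repressor, by 0.55 ± 0.13 (adjusted p = 0.0188). The Trps1 call was lost without NC replicate 1 (edgeR adjusted p = 0.0741) and without KD-Nap1l2-7d replicate 2 (adjusted p = 0.0766).

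Of 21 genes regarded as Runx2 targets, 16 were tested, 4 rose and 7 fell, with a median of -0.67. Spp1, which encodes osteopontin, rose from 28040 to 31370 normalized counts to between 36960 and 96980 (log2 fold change 1.30 ± 0.27 SE, edgeR adjusted p = 0.0112). Mmp13, a collagenase, had 1.96 to 30.5 counts before and 7.67 to 208 after induction, overlapping ranges (2.92 ± 0.88 SE, adjusted p = 0.0443), and its call was lost without any 1 of 7 libraries. Without NC-7d replicate 1 its change was 1.15, and without KD-Nap1l2 replicate 2 it was 4.14. Mmp9, a gelatinase, fell from 53.8 to 108 to at most 8.63 (-4.61 ± 0.41 SE, edgeR adjusted p = 0.000391), and Col10a1, the type X collagen of hypertrophic chondrocytes, from 28.0 to 53.1 to at most 6.71 (-3.61 ± 0.50 SE, adjusted p = 0.00239).

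Of 8 Twist partners and Id factors, 7 were tested and 3 fell, with a median of -0.21. Id2, an inhibitor of basic helix-loop-helix proteins, fell from 475 to 668 normalized counts to between 80.3 and 436 (log2 fold change -1.46 ± 0.42 SE, edgeR adjusted p = 0.0397) and Id4 fell by 2.20 ± 0.69 (adjusted p = 0.0498). The Id2 call was lost without any 1 of 6 libraries and the Id4 call without any 1 of 5. Without NC-7d replicate 2 the change was -2.31 for Id2 and -3.39 for Id4, and the smallest changes were -1.09 for Id2, without NC-7d replicate 1, and -1.56 for Id4, without NC replicate 1. Of 16 BMP ligands, receptors and antagonists, 10 were tested and 2 fell, with a median of -0.25. Bmp4, a ligand that induces Dlx5 and Msx genes, fell from 1461 to 2453 to between 721 and 1090 (-1.14 ± 0.13 SE, edgeR adjusted p = 0.000933), and Bambi, a pseudoreceptor of the pathway, fell to between 86.2 and 140 from at most 369 (-1.30 ± 0.19 SE, adjusted p = 0.00268). In these 5 lists edgeR called no gene between KD-Nap1l2 and NC at either time, whereas DESeq2 called 2 before induction (Chrd and Hes1) and 1 after 7 days (Atf4), named here after their values were seen, of 453 and 78 genes in all. Of the 83 genes tested in them, 14 (16.9%) had an unadjusted p under 0.05 in edgeR before induction and 10 (12.0%) after 7 days, against 13.7% and 7.85% of all genes.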

How the data were processed

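C3H10T1/2 RNA was sequenced in 8 libraries, 2 in each of 4 groups given by the labels. The submitters' processing notes name BWA, Bowtie2 and RSEM and the build GRCm38.p6, with no versions or roles. Estimated counts of genes and of transcripts were deposited by the authors without normalization, and for 41.1% of genes at least 1 value was fractional. Beside the counts stood FPKM values, which the authors had scaled to length and library. The authors' tables of fold changes and p-values were not used. Their group means were used only to check rows.

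Counts were rounded to whole numbers and filtered with filterByExpr, which kept 13470 genes and 38878 transcripts. Counts were scaled by TMM and fitted in all 8 libraries with edgeR 4.0.16 (R 4.3.3, quasi-likelihood test). Calls had a Benjamini-Hochberg adjusted p under 0.05 over all features. Standard errors were derived from each log2 fold change and its F statistic. Counts carry counting error, larger for low genes, besides the spread between libraries.

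The members and gene lists were chosen with earlier results of these data known. Transcripts were named when they averaged at least 20 estimated counts or belonged to Runx2. List genes were named as the called genes with the largest changes, up to 2 each way. For likeness to Runx2, the 5 genes with the highest r and a mean of at least 50 normalized counts were named. Alternatives used DESeq2 1.42.0, limma 3.58.1 on log2(FPKM + 1) and log2(FPKM + 0.1), RLE factors, other filters, the replicate number as a block, only the libraries compared, and each library left out. Transcripts were paired with GENCODE vM21. Sequences came from GENCODE, RefSeq and the study's primer list. Figures were drawn with matplotlib 3.10.9.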

Additional observations from a re-analysis of the deposited data

How the results depend on the processing

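Each group held 2 libraries, so the spread was estimated from few samples. Transcript estimates were less precise than gene estimates and limited what could be said of the promoters. Leaving out 1 library left its group with 1, which was assumed to vary like the other groups. No cause of a change was tested. With all 8 libraries, edgeR called 1106 genes, 3 members and 7 transcripts over induction in NC, 1912, 4 and 56 in KD-Nap1l2, and 3436, 5 and 551 averaged over both labels. It called 11 genes between the labels before induction and 0 after 7 days. Apart from leaving out libraries, 452 of the values of single genes kept their direction and side of the threshold, 16 lost a call, 1 gained one and 10 changed sign.

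All 10 changes of sign were those of Runx2 with the deposited gene FPKM row, which disagrees with the transcript sums. With log2(FPKM + 1) and log2(FPKM + 0.1), it gave Runx2 log2 changes of 0.30 and 0.32 over induction in NC, 0.0114 and 0.012 in KD-Nap1l2 and 0.16 and 0.17 averaged, and differences between the labels of 0.45 and 0.48 before induction and 0.16 and 0.17 after 7 days. The averaged induction calls of Mmp13 and Id4 were lost with both offsets (limma adjusted p = 0.0578 and 0.0788 for Mmp13, 0.069 and 0.0552 for Id4). With FPKM summed over transcripts, chosen after seeing the data, no sign changed. Genes called between the labels before induction were 33 and 18 with the 2 offsets and 37 with the summed FPKM.

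DESeq2 called more transcripts: 1770 over induction in NC, 2412 in KD-Nap1l2 and 3522 averaged, of which 1, 3 and 4 were member transcripts. Between the labels it called 453 genes and 869 transcripts before induction and 78 and 571 after 7 days, and for the difference between these contrasts 100 and 676. Without a filter on low counts, 18 transcripts in NC and 99 in KD-Nap1l2 were called over induction, 160 genes between the labels before induction and 1 gene for the difference. With at least 10 counts in every library, 209, 434 and 1311 transcripts were called over induction in NC, in KD-Nap1l2 and averaged, 3 of the last from members, and 4 genes between the labels before induction. With only the libraries compared in the fit, 0 members were called in NC and 2 in KD-Nap1l2, and 0 genes between the labels before induction. From FPKM, the proximal Runx2 share was 66.9% in NC, 60.5% in KD-Nap1l2, 53.9% in NC-7d and 63.8% ± 17.8 (SD, n = 2) in KD-Nap1l2-7d.

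Deviations of libraries with the same replicate number correlated between -0.06 and 0.10, so no strong effect shared by a number was seen. Whether libraries with the same number shared a culture or preparation cannot be told from these values. With the replicate number as a block, 1 member (Twist2) was called in NC, where Dlx5 and Msx1 had edgeR adjusted p = 0.061 and 0.0629, transcripts called over induction were 0 in NC, 0 in KD-Nap1l2 and 119 averaged, and 4 genes were called between the labels before induction. The calls of Mmp13 and Id4 over induction averaged over both labels were also lost (edgeR adjusted p = 0.074 and 0.0913). In the test of transcript use under the block, 7 transcripts were called over induction against 16, and 0 between the labels after 7 days against 1.

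Without each library in turn, genes called over induction ranged from 122 (without NC replicate 1) to 1490 (without KD-Nap1l2 replicate 1) in NC, from 305 (without KD-Nap1l2-7d replicate 1) to 2218 (without NC-7d replicate 1) in KD-Nap1l2 and from 1684 (without NC replicate 1) to 3918 (without KD-Nap1l2 replicate 1) averaged. Members called ranged from 0 to 5, 0 to 4 and 5 to 6, and transcripts called from 0 to 0, 0 to 14 and 6 to 324. Between the labels before induction, 0 to 562 genes and 0 to 1 members were called, the highest without KD-Nap1l2 replicate 1, and after 7 days 0 to 1 genes. For the difference, 0 to 19 genes were called, the highest without NC-7d replicate 1. Transcripts called for transcript use ranged from 6 to 22 over induction, 2 to 15 before induction and 2 to 7 after 7 days. Small changes also changed sign on the log2 scale. These ranged over induction from -0.17 to 0.0536 for Cbfb in NC, -0.37 to 0.71 for Runx1 in KD-Nap1l2 and, averaged, -0.0234 to 0.36 for Cbfb NM_001161458.1, -0.81 to 0.0297 for Cbfb NM_022309.4 and -0.10 to 0.38 for Runx1 NM_001111023.2. Between the labels before induction they ranged from -0.20 to 0.13 for Runx2, -0.20 to 0.13 for Twist1 and -0.39 to 0.0567 for Twist2, and for the difference from -0.28 to 0.0525 for Runx2, -0.76 to 0.32 for Runx1, -0.19 to 0.10 for Dlx5 and -0.23 to 0.10 for Twist1.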
